A study of Danio rerio with 24 samples.

Results

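Zebrafish embryos treated with TP-0903 for 8 h were compared with embryos that received its solvent, DMSO, for the same time. The comparison used 8 of the 24 libraries of the series, 4 from TP-0903-treated and 4 from DMSO-treated embryos, chosen by the treatment and time in their labels and not by any measured value. Each library came from total RNA of 35 whole embryos, pooled, so a value is an average over all tissues, and in such bulk RNA fewer cells of a type and less RNA per cell cannot be told apart. Both groups carried the strain label Tg(snail1b:GFP), a transgene in which the promoter of snai1b, a gene switched on in premigratory neural crest (NC), drives green fluorescent protein; the reporter itself was not analysed here. Treatment began at 13 h post-fertilization (hpf), at 8 somites, and the labels give 21 somites and 19.5 hpf at collection, although 8 h after 13 hpf is 21 hpf. The dose used for sequencing is not given in the sources used here. The other 16 libraries hold the same treatments after 1 h and 4 h, and those of 4 h are set beside the 8 h values where they show a difference.

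TP-0903 is a multi-kinase inhibitor, made as an inhibitor of the AXL receptor tyrosine kinase, that also acts on several other kinases. In embryos it raises retinoic acid (RA) signaling. RA is made from vitamin A by retinaldehyde dehydrogenases, binds nuclear receptors that sit on DNA, and is destroyed by Cyp26 enzymes, whose genes are themselves RA targets. In vertebrate embryos RA is best known for setting the anterior limits of Hox gene expression in the hindbrain and trunk. Somites form from the tail end during the stages studied here and turn into slow and fast muscle, while NC cells leave the neural tube and give rise to pigment cells, peripheral neurons and the skeleton of the face.

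The libraries held 6666585 to 9257751 counts on genes, and the totals did not separate the treatments (exact permutation test of 4 against 4, two-sided, p = 0.314). Log2 counts of libraries of the same group correlated across genes with r of 0.986 to 0.991, and no library repeated another beyond sampling noise. The first principal component held 54.0% of the variance and separated the treatments. DMSO replicate 1 and TP-0903 replicate 4 had the highest summed levels of their groups in targets of p53, here called DNA damage response genes. Genes of this kind halt the cell cycle or start cell death, and damage itself was not measured. The summed level of 35 such genes was 3576 CPM (normalized counts relative to the library total) in DMSO replicate 1 against 2591 to 2923 CPM in the other DMSO libraries, and 3658 CPM in TP-0903 replicate 4 against 2386 to 2761 CPM in the other TP-0903 libraries. Results were therefore also computed without this pair, a choice made after seeing the data, and 4833 genes were then called in place of 5050.

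Of 18984 genes listed at 8 h, 17478 had enough counts to be tested with edgeR's quasi-likelihood test. With p-values adjusted by Benjamini-Hochberg and a threshold of 0.05, 5050 genes were called (28.9%), 2691 of them higher with TP-0903 (15.4%) and 2359 lower (13.5%). These shares are the background for every gene group below. For 5049 genes (28.9%) the 4 values of either treatment lay entirely above those of the other. Most changes were small, with a median size of 0.55 on the log2 scale among called genes, but 689 genes rose and 215 fell by at least 2-fold, and 94 rose and 26 fell by at least 4-fold. The median over all genes tested was -0.01 (interquartile range -0.22 to 0.25). Across genes the change correlated weakly with gene length (Spearman's rho 0.22, a description, since genes are not replicates), and the median change ran from -0.11 in the shortest of 4 length classes to 0.11 in the longest. For comparison, 118 of 15953 genes were called at 4 h (0.74%), and for 2255 of 15913 genes listed at both times (14.2%) the change at 8 h was not that at 4 h by a test of the interaction of treatment and time, a number that was 1453 without TP-0903 replicate 1 of 8 h. Standard errors (SE), derived from the tests, were larger at 4 h than at 8 h for most genes named below.

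**Figure D1:**
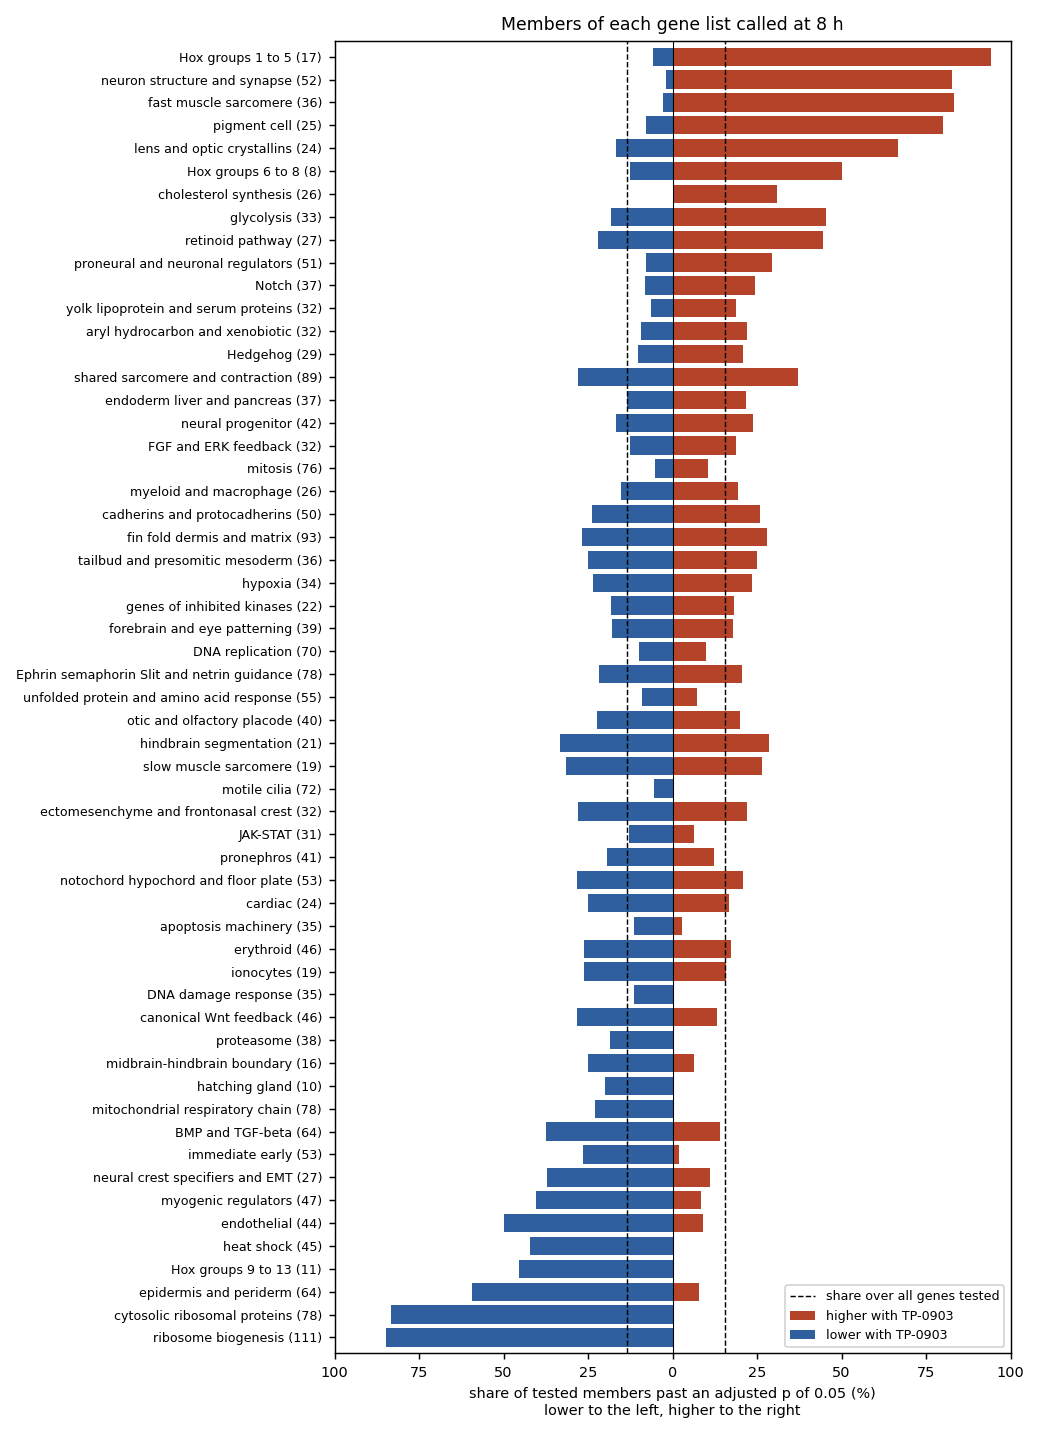
Share of the tested members of 57 gene lists that were called higher (red, to the right) or lower (blue, to the left) in TP-0903-treated embryos at 8 h, in percent, with the number of members tested in parentheses. Dashed lines mark the shares over all genes tested, 15.4% higher and 13.5% lower; Hox groups 1 to 5, neuron structure, fast muscle, pigment cell and lens lists lie far to the right, and ribosome biogenesis, ribosomal protein and epidermis lists far to the left.

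The gene lists fell into 3 kinds, as the plot of called members by list shows. In the lists of Hox groups 1 to 5, neuron structure, fast muscle, pigment cells and lens, between 66.7% and 94.1% of the tested members rose. In those of ribosome biogenesis, cytosolic ribosomal proteins, epidermis and endothelium, between 50.0% and 84.7% fell. Many others held members that rose beside members that fell. Among genes with at least a 4-fold rise, 8 were fast muscle genes and 8 were lens genes, while 3 of the genes with at least a 4-fold fall were regulators of muscle formation.

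**Figure D2:**
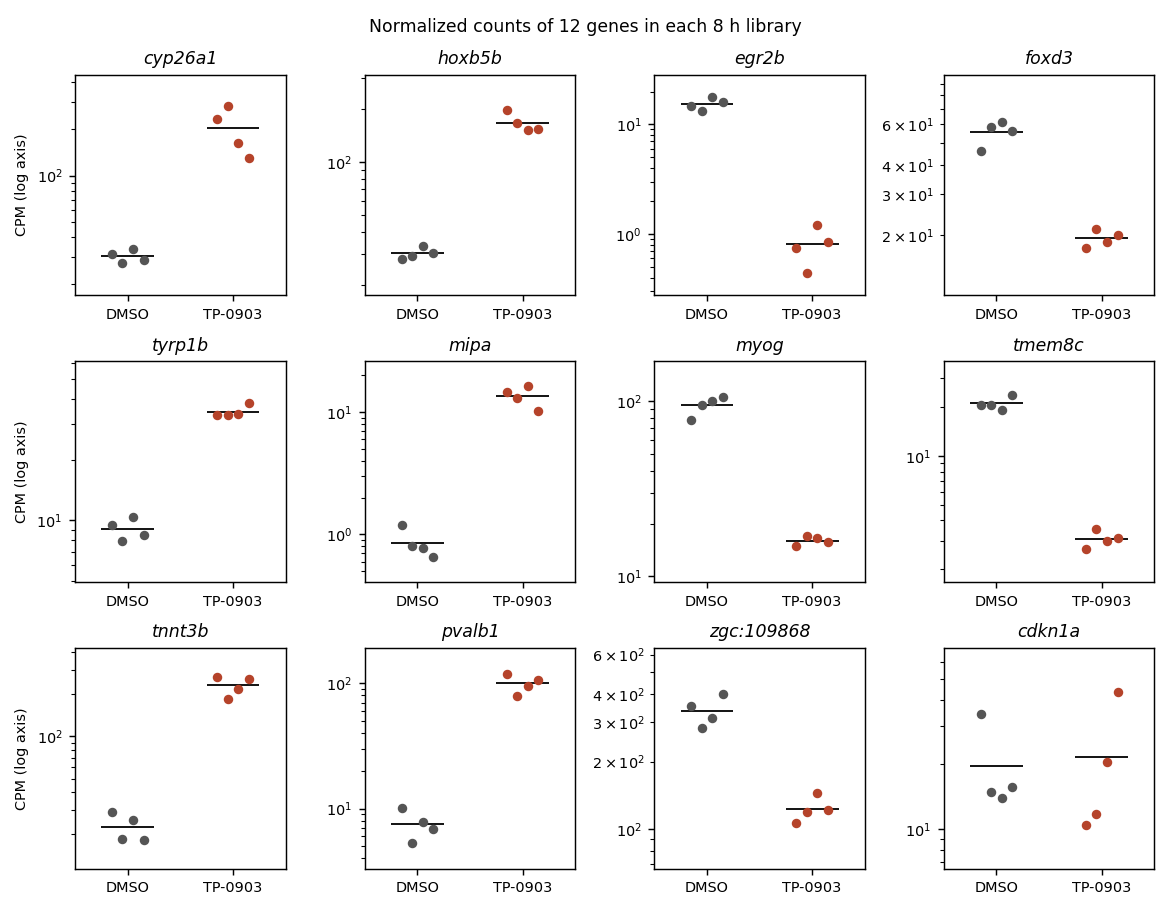
Normalized counts (CPM, log axis) of 12 genes in each of the 4 DMSO (grey) and 4 TP-0903 (red) libraries at 8 h, with a line at the group mean. In 11 of the panels the groups do not overlap; in the panel of cdkn1a, a DNA damage response gene, the highest value of either group is that of DMSO replicate 1 and TP-0903 replicate 4.

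Genes of the retinoid pathway were among the clearest to respond. Of 27 tested, 12 rose (44.4%) and 6 fell (22.2%). The main RA-degrading enzyme, the reductases of its precursor and several receptors rose, and enzymes that make RA fell. cyp26a1, the main RA-degrading enzyme of the early embryo and a direct RA target, was at 31.2, 27.2, 33.7 and 28.7 CPM in the DMSO libraries and 232, 279.9, 162 and 130.4 CPM in the TP-0903 libraries (log2 fold change 2.73, SE 0.20, adjusted p = 3.36e-07). Every TP-0903 library was above every DMSO library, and TP-0903 replicates 3 and 4 were lower than replicates 1 and 2. At 4 h the change of cyp26a1 had been larger, with a log2 fold change of 4.10 (SE 0.25), and the difference between the times was -1.34 (SE 0.33, adjusted p = 0.0138). dhrs3b, a retinaldehyde reductase that returns the RA precursor to retinol, was at 17.9, 23.7, 28.3 and 30.8 CPM in the DMSO libraries and 151, 136, 108 and 106 CPM in the TP-0903 libraries (log2 fold change 2.30, SE 0.15, adjusted p = 1.59e-07). Like cyp26a1 it had changed more at 4 h, as had its paralogue dhrs3a, whose log2 fold change was 3.18 (SE 0.32) at 4 h and 1.00 (SE 0.11) at 8 h, a difference of -2.15 (SE 0.36, adjusted p = 8.10e-04).

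Among the nuclear receptors, rxrga, a retinoid X receptor, rose from 13.9 ± 1.23 to 45.5 ± 4.75 CPM (SD, n = 4 each; log2 fold change 1.71, SE 0.10) and its change at 4 h was of the same size (1.67, SE 0.15). The paralogue rxrgb and the RA receptor raraa also rose, with log2 fold changes of 1.48 (SE 0.16) and 0.84 (SE 0.08), whereas the RA receptors of the gamma class, rargb (-1.54, SE 0.21) and rarga (-0.66, SE 0.08), fell. crabp2b, a cellular RA-binding protein, rose by 1.36 (SE 0.16) and had not been called at 4 h (-0.50, SE 0.21); the effects differed by 1.88 (SE 0.28, adjusted p = 2.88e-04). The enzymes that make RA went the other way. aldh1a2, the principal RA-synthesizing enzyme of the trunk mesoderm, was at 63.8, 62.7, 62.7 and 72.9 CPM in the DMSO libraries and 32.7, 33.3, 32.7 and 40.5 CPM in the TP-0903 libraries (log2 fold change -0.91, SE 0.09, adjusted p = 6.80e-06), with no overlap between the groups. aldh1a3 (-0.61, SE 0.19) and rdh10a (-0.58, SE 0.08), which makes retinaldehyde, fell too. The 3 Cyp26 genes did not move together: cyp26b1 rose by 0.47 (SE 0.10) while cyp26c1, a hindbrain enzyme, fell from 95.9 ± 5.42 to 59.7 ± 3.45 CPM.

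Hox genes encode the transcription factors that give cells their position along the body, and their number runs from head (group 1) to tail (group 13). Of the 17 tested genes of groups 1 to 5, 16 rose, with a median log2 fold change of 1.29 over the list. hoxb5b, the gene with the largest rise, was at 28.03, 29.2, 33.3 and 30.2 CPM in the DMSO libraries and 196, 167, 151 and 155 CPM in the TP-0903 libraries (log2 fold change 2.47, SE 0.10, adjusted p = 1.64e-09). hoxb5a (2.03, SE 0.14), hoxb4a (1.99, SE 0.12) and hoxc4a (1.80, SE 0.12) followed. hoxb1a, an RA target of the hindbrain, rose from 21.03 ± 3.20 to 40.6 ± 8.49 CPM (SD, n = 4 each; log2 fold change 0.95, SE 0.15, adjusted p = 3.07e-04), and its change at 8 h did not differ from that at 4 h past the threshold, with a difference of -0.76 (SE 0.27, adjusted p = 0.0649). The exception was hoxa2b, which in hindbrain and cranial NC specifies the second pharyngeal arch. Its level was 15.3, 18.9, 22.7 and 18.99 CPM in the DMSO libraries and 5.80, 7.87, 8.06 and 5.79 CPM in the TP-0903 libraries (log2 fold change -1.46, SE 0.16, adjusted p = 1.15e-05), and at 4 h it had changed by -0.31 (SE 0.12), a difference between the times of -1.13 (SE 0.20, adjusted p = 0.00148).

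In groups 6 to 8, 4 of 8 tested genes rose (hoxb6b, hoxb8a, hoxb6a and hoxb8b) and hoxb7a fell. In groups 9 to 13, which mark the posterior trunk and tail, 11 of 21 listed genes had enough counts to be tested. None of these 11 rose and 5 fell. The summed level of the list was 178 to 230 CPM with DMSO and 170 to 208 CPM with TP-0903, which overlap. hoxa11b was at 6.05, 6.45, 8.93 and 7.97 CPM in the DMSO libraries and 1.04, 1.44, 2.53 and 1.45 CPM in the TP-0903 libraries (log2 fold change -2.16, SE 0.24, adjusted p = 1.73e-05), and its fall had grown from -1.17 (SE 0.13) at 4 h by -0.97 (SE 0.27, adjusted p = 0.0254). In DMSO-treated embryos the mean level of hoxa11b was 38.1 CPM at 4 h and 7.35 CPM at 8 h. That difference was not tested, and counts at 4 h and at 8 h were deposited and scaled separately. The TP-0903 libraries of 8 h held 7 to 21 counts of it each. hoxa10b fell by 1.06 on the log2 scale (SE 0.23). hoxd11a was at 1.71, 1.73, 5.29 and 1.96 CPM in the DMSO libraries and 0.297, 0, 1.20 and 0.723 CPM in the TP-0903 libraries, so it rests on very few counts. hoxb9a, the most abundant of these genes, was at 75.5 ± 7.90 CPM with DMSO and 87.96 ± 6.49 CPM with TP-0903 and was not called (log2 fold change 0.22, SE 0.09, adjusted p = 0.0715). The plot of Hox genes in order of paralogue group shows positive values up to group 8, apart from hoxa2b, hoxb7a and hoxc8a, and negative values in all tested genes of groups 10 and 11. The change was higher at 8 h than at 4 h past the threshold for 6 genes of groups 1 to 5, and lower for hoxa2b, hoxb7a and hoxa11b.

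**Figure D3:**
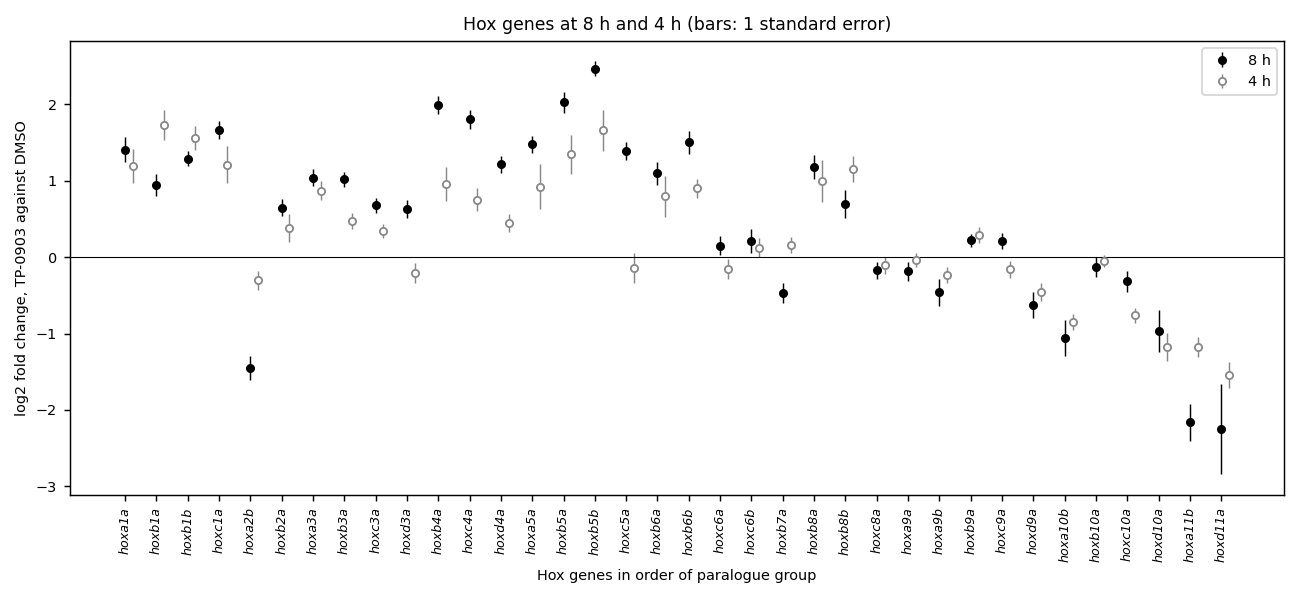
Log2 fold change (TP-0903 against DMSO) of the 36 tested Hox genes in order of paralogue group, at 8 h (filled points) and 4 h (open points), with bars of 1 standard error, derived from the test. At 8 h all genes of groups 1 to 5 lie above 0 except hoxa2b at -1.46, and the lowest values are those of hoxa11b and hoxd11a at -2.16 and -2.25.

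The hindbrain is built from segments, rhombomeres, each with its own regulators. egr2b, which defines alternating segments and a stream of NC leaving them, had the largest fall among genes whose mean reached 5 CPM in either group. Its level was 14.6, 13.2, 17.9 and 16.04 CPM in the DMSO libraries and 0.744, 0.444, 1.20 and 0.844 CPM in the TP-0903 libraries (log2 fold change -4.24, SE 0.22, adjusted p = 1.75e-08), with no overlap. At 4 h its log2 fold change was -0.81 (SE 0.30, not called), and the effects differed by -3.41 (SE 0.49, adjusted p = 2.53e-04). The paralogue egr2a fell by 0.91 on the log2 scale (SE 0.16), and mafba, a regulator of the posterior segments, was at 42.2 ± 5.87 CPM with DMSO and 22.1 ± 1.96 CPM with TP-0903 (log2 fold change -0.94, SE 0.11, adjusted p = 2.94e-05). VGLL3 (-1.55, SE 0.12), irx7 (-1.26, SE 0.12) and wnt8b (-0.71, SE 0.11) also fell. Among the 21 tested members of this list 7 fell and 6 rose, and all those that rose were Meis and Pbx genes, whose proteins bind DNA together with Hox proteins. meis3 was at 80.8, 82.5, 82.4 and 77.3 CPM in the DMSO libraries and 145, 147, 125 and 139 CPM in the TP-0903 libraries (log2 fold change 0.78, SE 0.07, adjusted p = 2.79e-06), and meis1 (0.45, SE 0.07) and meis2a (0.67, SE 0.07) rose with it. An entry of pbx1a rose by 1.86 (SE 0.25) but is not among these 6, since no member of the list was called at least 2-fold higher. epha4a, a segment boundary gene in the same segments as egr2b, was not called (-0.21, SE 0.08).

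Of 39 tested forebrain and eye patterning genes 7 rose and 7 fell, with a median of -0.02, but 4 rose without DMSO replicate 1, TP-0903 replicate 1 or TP-0903 replicate 2, and 4 fell without DMSO replicate 2 or 3. emx3, a marker of the dorsal forebrain, fell from 11.9 ± 1.28 to 5.77 ± 0.803 CPM (SD, n = 4 each; log2 fold change -1.03, SE 0.15, adjusted p = 1.27e-04), and fezf2 (-0.36, SE 0.09) and irx1b (-0.84, SE 0.11) also fell. pax6b, a master regulator of eye formation, rose by 0.46 (SE 0.09). foxg1a, otx2, rx1 and nkx2.1b were not called. At the boundary of midbrain and hindbrain, an organizing center that secretes Fgf8 and Wnt1, 4 of 16 tested genes fell and 1 rose. fgf8a was at 24.1, 28.6, 24.8 and 21.4 CPM in the DMSO libraries and 18.4, 16.7, 20.7 and 17.1 CPM in the TP-0903 libraries (log2 fold change -0.44, SE 0.11, adjusted p = 0.00991). At 4 h the same gene had been higher with TP-0903, by 0.55 (SE 0.09, called), so its change turned, with a difference of -0.97 (SE 0.14, adjusted p = 2.77e-04). wnt1 fell by 0.78 on the log2 scale (SE 0.12) and her5 by 0.99 on the log2 scale (SE 0.21), whereas pax2a (0.10, SE 0.09) and eng2b (-0.21, SE 0.10), which mark the same territory, were not called.

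Genes for the working parts of neurons rose almost throughout. Of 52 tested genes of neuron structure and synapse, 43 rose (82.7%) and only cxcr4b, a chemokine receptor, fell, with a median log2 fold change of 0.65. Their summed level was 1582 to 1727 CPM in the DMSO libraries and 2261 to 2667 CPM in the TP-0903 libraries, with no overlap. kcnc3a, a fast potassium channel, was at 9.08, 11.9, 12.6 and 11.1 CPM in the DMSO libraries and 39.9, 31.1, 26.1 and 25.6 CPM in the TP-0903 libraries (log2 fold change 1.44, SE 0.15, adjusted p = 9.80e-06). The SNARE protein gene snap25a (0.97, SE 0.09), the microtubule-binding protein gene mapta (1.06, SE 0.09), the sodium channel gene scn8aa (0.86, SE 0.11) and the GABA-synthesizing enzyme gene gad1b (1.42, SE 0.21) rose as well. elavl3, an RNA-binding protein gene of newly born neurons, rose less, from 273 ± 15.5 to 343 ± 19.7 CPM. None of the 40 members tested at 4 h was called then, and in 16 of 40 the change at 8 h was higher than at 4 h past the threshold, with none lower.

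The transcription factors that precede neuron formation moved less. Of 51 tested proneural and neuronal regulators 15 rose (29.4%) and 4 fell (7.8%), with a median of 0.25. The number that rose was 10 without DMSO replicate 1 or TP-0903 replicate 1 and 21 without TP-0903 replicate 4. The number that fell was 2 without DMSO replicate 1 or 3 or without TP-0903 replicate 2 or 4. lhx1a (0.99, SE 0.12), onecut1 (0.94, SE 0.13) and olig2, a gene of motor neuron progenitors (0.73, SE 0.16), rose. atoh1a, which drives neurons of the dorsal hindbrain, was at 10.8, 11.1, 11.03 and 9.71 CPM in the DMSO libraries and 3.42, 2.55, 4.57 and 3.74 CPM in the TP-0903 libraries (log2 fold change -1.58, SE 0.17, adjusted p = 1.28e-05), and atoh1b and drgx, a gene of dorsal sensory neurons, fell too. neurog1, which commits precursors to a neuronal fate, was at 34.2, 33.7, 51.8 and 34.5 CPM in the DMSO libraries and 63.5, 56.01, 52.6 and 41.2 CPM in the TP-0903 libraries, which overlap. Among 42 neural progenitor genes 10 rose and 7 fell, and the number that rose was 5 without TP-0903 replicate 1, 6 without TP-0903 replicate 2 or 3 and 15 without TP-0903 replicate 4. vim, an intermediate filament of radial glia, rose from 75.1 ± 5.57 to 149 ± 33.6 CPM (SD, n = 4 each), whereas sox19a (-0.28, SE 0.07) and sox21a (-0.64, SE 0.10), which mark undifferentiated neural precursors, fell.

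NC specifiers and the regulators of the epithelial-to-mesenchymal transition (EMT), the step in which NC cells leave the neural tube, fell more often than they rose. Of 27 tested, 10 fell (37.0%) and 3 rose (11.1%), with a median of -0.01. Whole-embryo RNA does not show in which tissue a member fell. foxd3, an early NC specifier, was at 45.9, 58.6, 61.5 and 55.98 CPM in the DMSO libraries and 17.7, 21.2, 18.6 and 20.01 CPM in the TP-0903 libraries (log2 fold change -1.52, SE 0.10, adjusted p = 2.36e-07). twist1a, an EMT factor of cranial NC, was at 34.6, 35.9, 37.6 and 35.4 CPM in the DMSO libraries and 17.6, 19.2, 18.9 and 19.8 CPM in the TP-0903 libraries (log2 fold change -0.93, SE 0.09, adjusted p = 3.25e-06). Neither gene was called at 4 h, where the log2 fold change of foxd3 was 0.21 (SE 0.11) and that of twist1a was -0.09 (SE 0.15), and the effects at the 2 times differed by -1.71 (SE 0.16, adjusted p = 3.18e-06) for foxd3 and -0.82 (SE 0.18, adjusted p = 0.00747) for twist1a. snai2 fell by 0.77 on the log2 scale (SE 0.11), and cdh6, a cadherin of premigratory NC, fell from 178 ± 11.03 to 107 ± 15.8 CPM (SD, n = 4 each) and had fallen at 4 h already (-0.42, SE 0.07). msxb (-0.57, SE 0.08) and msxe (-0.82, SE 0.16), genes of the neural plate border, fell as well.

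snai1b, whose promoter drives the reporter, was at 33.6, 20.5, 14.4 and 15.5 CPM in the DMSO libraries and 9.97, 8.65, 5.77 and 19.6 CPM in the TP-0903 libraries. The groups overlap, because TP-0903 replicate 4, at 19.6 CPM, exceeds DMSO replicates 3 and 4, and DMSO replicate 1 is the highest of all. These are the libraries with the highest levels of DNA damage response genes. The log2 fold change of snai1b was -0.92 (SE 0.32, adjusted p = 0.0427), and it was called in 3 of 8 fits that left out a library in turn and not by DESeq2. Without both libraries the log2 fold change of snai1b was -1.06, and the gene was called. sox10, the marker of the NC lineage, did not pass the threshold, at 45.8, 52.2, 53.7 and 57.3 CPM in the DMSO libraries and 54.3, 53.5, 56.9 and 56.3 CPM in the TP-0903 libraries (log2 fold change 0.08, SE 0.08, adjusted p = 0.498), and neither did tfap2a (-0.13, SE 0.06).

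Genes listed for the NC that forms the facial skeleton moved in both directions. Their values are averages over whole embryos, so whether the changes lay in NC was not tested. Of 32 tested ectomesenchyme and frontonasal genes 7 rose (21.9%) and 9 fell (28.1%). dlx2a, a marker of NC in the pharyngeal arches, was at 29.6, 32.6, 28.01 and 25.1 CPM in the DMSO libraries and 19.2, 21.8, 22.5 and 16.3 CPM in the TP-0903 libraries (log2 fold change -0.53, SE 0.12, adjusted p = 0.00431). At 4 h its log2 fold change was -1.09 (SE 0.15), so the fall was smaller at 8 h, by 0.58 (SE 0.19, adjusted p = 0.0491). dlx5a and dlx6a, edn1, a signal that patterns the lower jaw (-1.01, SE 0.28), and cxcl12a, a chemokine that guides migrating cells (-0.84, SE 0.11), fell. alx1, a gene of frontonasal NC, was at 10.5, 7.71, 8.27 and 8.40 CPM in the DMSO libraries and 16.5, 19.1, 19.97 and 14.1 CPM in the TP-0903 libraries (log2 fold change 1.00, SE 0.14, adjusted p = 1.42e-04), and alx4b rose from lower levels (1.06, SE 0.25). nkx3.2, prrx1b and foxf1 also rose.

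Pigment cell genes rose as a group while an endothelin receptor of early NC fell. Of 25 tested members 20 rose (80.0%) and 2 fell, with a median of 0.96, and the summed level was 384 to 424 CPM with DMSO and 624 to 675 CPM with TP-0903. tyrp1b, a melanin-synthesizing enzyme, was at 9.47, 7.94, 10.4 and 8.51 CPM in the DMSO libraries and 33.02, 33.3, 33.4 and 38.2 CPM in the TP-0903 libraries (log2 fold change 1.93, SE 0.11, adjusted p = 4.37e-08), close to a 4-fold difference with no overlap. The other enzymes of that pathway, dct (1.62, SE 0.11) and tyr (1.31, SE 0.10), and the melanosome genes slc24a5 (1.95, SE 0.16), oca2 (1.84, SE 0.14) and pmela (1.11, SE 0.11) rose. mitfa, the regulator that specifies melanophores, was at 13.03, 13.1, 13.2 and 12.9 CPM in the DMSO libraries and 19.2, 17.2, 16.4 and 19.4 CPM in the TP-0903 libraries (log2 fold change 0.46, SE 0.10, adjusted p = 0.00434), a smaller rise than those of the enzymes. The rise was not limited to melanophores: pnp4a, a purine enzyme of reflective iridophores (1.20, SE 0.16), ltk, the receptor kinase that specifies iridophores (1.24, SE 0.16), and gch2, a pteridine enzyme of yellow xanthophores (0.71, SE 0.09), rose too. ednrab, an endothelin receptor expressed in early NC, was at 38.6, 49.04, 48.6 and 50.2 CPM in the DMSO libraries and 11.9, 15.4, 13.7 and 14.8 CPM in the TP-0903 libraries (log2 fold change -1.73, SE 0.11, adjusted p = 1.58e-07), and ednrb1a, the receptor of later pigment cells, rose from 11.5 ± 1.63 to 26.4 ± 1.39 CPM. Many members were not analysed at 4 h, and of the 10 tested then none was called. tfec, a factor of early multipotent pigment precursors, fell by 0.49 on the log2 scale (SE 0.13), and kita was not called (0.21, SE 0.10).

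Lens structural genes rose strongly while 4 transcription factors in the lens list fell. Of 24 tested genes 16 rose (66.7%) and 4 fell, with a median of 1.10. mipa, a water channel of lens fibers, was at 1.18, 0.806, 0.772 and 0.655 CPM in the DMSO libraries and 14.6, 13.1, 16.2 and 10.1 CPM in the TP-0903 libraries (log2 fold change 3.98, SE 0.23, adjusted p = 4.59e-08). crybb1l1, a beta-crystallin, was at 2.50, 2.53, 1.76 and 1.75 CPM in the DMSO libraries and 15.2, 14.1, 17.1 and 13.7 CPM in the TP-0903 libraries (log2 fold change 2.82, SE 0.17, adjusted p = 5.78e-08), and cx44.1, a lens gap junction protein, rose from 5.15 ± 1.26 to 17.6 ± 1.54 CPM. All these genes had low levels in DMSO-treated embryos, and several crystallin genes are near copies of each other, whose repetitive alignments the authors discarded. The 4 members that fell were foxe3 (-1.43, SE 0.25), a factor of the proliferating lens epithelium, pitx3 (-0.52, SE 0.13), maf and mafa. mafa was the most abundant of them, at 81.97 ± 6.75 CPM with DMSO and 46.2 ± 3.63 CPM with TP-0903 (SD, n = 4 each). Its level with DMSO was far above those of mipa, crybb1l1 and cx44.1. In whole-embryo RNA the tissue in which these 4 members fell was not tested. In the otic and olfactory placodes 8 of 40 tested genes rose and 9 fell, but 4 rose without DMSO replicate 2 or TP-0903 replicate 3, 5 without TP-0903 replicate 1 and 3 without TP-0903 replicate 2. otomp, a protein of ear stones, rose by 0.70 (SE 0.13), while oc90, another ear stone protein, was at 26.1, 18.4, 27.6 and 20.5 CPM in the DMSO libraries and 11.5, 18.7, 15.2 and 19.5 CPM in the TP-0903 libraries (log2 fold change -0.50, SE 0.17, adjusted p = 0.0351), which overlap. dlx3b (-0.77, SE 0.12) and six4b (-0.66, SE 0.11), early placode genes, fell.

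Epidermal genes fell broadly. Of 64 tested genes of epidermis and periderm, the surface layer of the embryo, 38 fell (59.4%) and 5 rose (7.8%), with a median of -0.38 and summed levels of 19698 to 23665 CPM with DMSO and 16403 to 18863 CPM with TP-0903. Without DMSO replicate 4 or TP-0903 replicate 2 the number that rose was 3. krt5, a keratin of the basal layer, was at 1878, 1309.7, 1651 and 1817 CPM in the DMSO libraries and 1004, 1026, 1185 and 1050.0 CPM in the TP-0903 libraries (log2 fold change -0.64, SE 0.10, adjusted p = 2.94e-04). The most abundant member, the periderm keratin krt4, was at 11671, 9259, 11211 and 10657 CPM in the DMSO libraries and 8124, 8190.1, 9709.8 and 8540.2 CPM in the TP-0903 libraries (log2 fold change -0.31, SE 0.08, adjusted p = 0.0104). zgc:109868, a gene with no descriptive name in the files, was at 355, 282, 313 and 401 CPM in the DMSO libraries and 107, 119, 145 and 122 CPM in the TP-0903 libraries (log2 fold change -1.45, SE 0.11, adjusted p = 6.46e-07), and krt17 fell by 1.16 on the log2 scale (SE 0.13). cdh1, the epithelial cadherin, was at 248, 229.8, 235 and 221 CPM in the DMSO libraries and 131, 147, 152 and 164 CPM in the TP-0903 libraries (log2 fold change -0.65, SE 0.08, adjusted p = 2.59e-05), and epcam (-0.51, SE 0.13) and the claudins cldnb (-0.91, SE 0.10) and cldn7b (-0.72, SE 0.10) fell too. The regulators tp63, which founds the basal layer (-0.43, SE 0.08), grhl1 (-0.56, SE 0.07) and grhl3 (-0.55, SE 0.13) fell too. itgb4, an integrin that anchors basal cells to the basement membrane, was an exception, at 90.1, 103, 107 and 97.8 CPM in the DMSO libraries and 196, 174, 163 and 148 CPM in the TP-0903 libraries (log2 fold change 0.78, SE 0.09, adjusted p = 2.09e-05). zgc:113413 had the largest rise in the list (1.74, SE 0.16). Few of these changes were seen at 4 h: 1 of the 61 members tested at 4 h was called, and the change was lower at 8 h than at 4 h past the threshold for 26 of 61 members and higher for 1. For cdh1 the log2 fold change at 4 h was 0.13 (SE 0.12) and the difference -0.76 (SE 0.15, adjusted p = 0.00282).

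Skin ionocytes, which exchange salts with the water, and the hatching gland, which makes enzymes that digest the egg envelope, are scattered or small cell groups of the surface. Of 19 tested ionocyte genes 5 fell and 3 rose, and 3 fell without DMSO replicate 3. atp1a1a.3, a sodium pump subunit, was at 8.42, 8.63, 9.48 and 11.2 CPM in the DMSO libraries and 1.19, 1.77, 1.68 and 0.723 CPM in the TP-0903 libraries (log2 fold change -2.79, SE 0.23, adjusted p = 1.02e-06) and was not analysed at 4 h, whereas ca2, a carbonic anhydrase, rose from 122 ± 6.24 to 196 ± 13.1 CPM (SD, n = 4 each). The fate regulators foxi3a (-0.38, SE 0.16) and foxi3b (0.04, SE 0.16) were not called. In the hatching gland list 2 of 10 tested genes fell and none rose. he2, a hatching enzyme, was at 76.4, 61.9, 64.6 and 79.1 CPM in the DMSO libraries and 20.4, 32.6, 29.1 and 23.1 CPM in the TP-0903 libraries (log2 fold change -1.41, SE 0.13, adjusted p = 3.44e-06), and klf4b, a regulator of the gland, fell by 0.60 on the log2 scale (SE 0.11). he1a, the more abundant hatching enzyme, was not called and varied widely, at 209, 116, 105 and 105 CPM in the DMSO libraries and 109, 152, 163 and 94.2 CPM in the TP-0903 libraries.

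The muscle lists differed from each other. Several regulators that commit and fuse muscle precursors fell, fast fiber genes rose, slow fiber genes were mixed with the most abundant of them falling, and sarcomere genes common to both fiber types split in both directions. The plot of log2 fold changes in the muscle lists shows the 4 groups side by side.

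**Figure D4:**
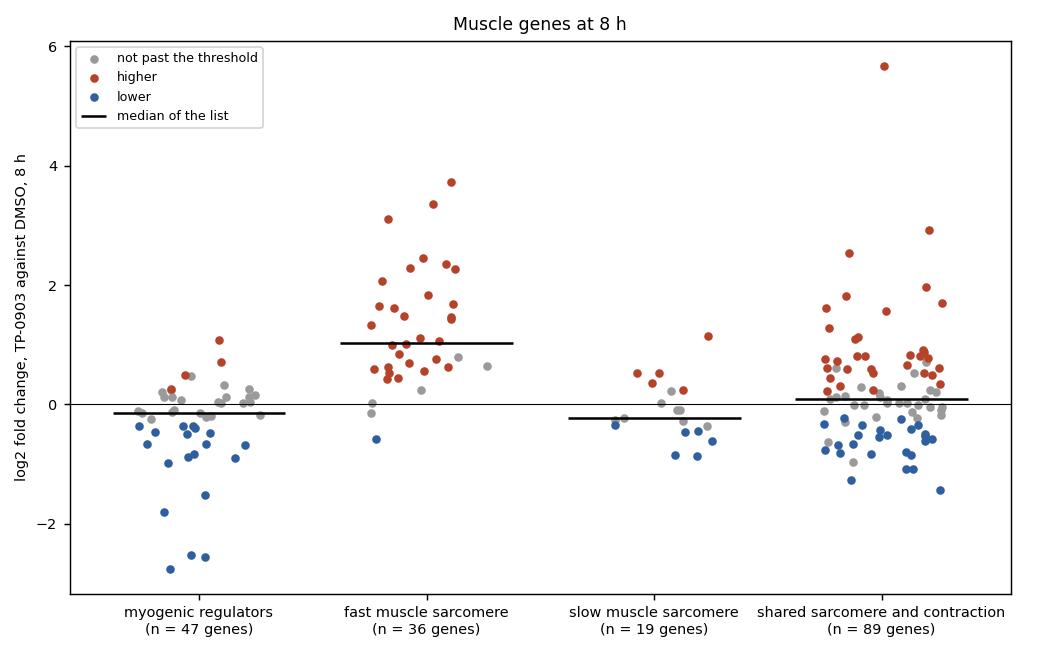
Log2 fold change (TP-0903 against DMSO, 8 h) of each tested member of the 4 muscle lists, colored by the call (red higher, blue lower, grey not past the threshold), with a black line at the median of the list. The medians are -0.14 for myogenic regulators, 1.03 for fast muscle, -0.23 for slow muscle and 0.09 for shared sarcomere genes.

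Of 47 tested myogenic regulators 19 fell (40.4%) and 4 rose (8.5%). myog, the transcription factor that starts terminal differentiation, was at 78.6, 94.98, 101 and 106 CPM in the DMSO libraries and 14.9, 16.97, 16.5 and 15.7 CPM in the TP-0903 libraries (log2 fold change -2.57, SE 0.10, adjusted p = 1.64e-09). tmem8c, the membrane protein that lets myoblasts fuse, was at 20.5, 20.6, 19.2 and 23.9 CPM in the DMSO libraries and 2.68, 3.55, 3.01 and 3.13 CPM in the TP-0903 libraries (log2 fold change -2.75, SE 0.14, adjusted p = 1.32e-08), and jam2a, an adhesion receptor for the same fusion step, at 35.00, 44.3, 40.9 and 40.05 CPM in the DMSO libraries and 6.10, 7.21, 6.98 and 7.47 CPM in the TP-0903 libraries (log2 fold change -2.52, SE 0.11, adjusted p = 3.74e-09). In these 3 genes the TP-0903 libraries lay close together and far below every DMSO library. cdh15, the muscle cadherin, fell from 213 ± 6.24 to 74.3 ± 9.30 CPM (SD, n = 4 each), mef2d by 0.98 on the log2 scale (SE 0.08) and myod1, which acts upstream of myog, by 0.47 on the log2 scale (SE 0.09). tbx18, a gene of the anterior somite compartment, fell by 1.81 on the log2 scale (SE 0.20). smyd1a, a methyltransferase of muscle (1.09, SE 0.11), prdm1a, which promotes slow fiber fate (0.72, SE 0.08), and pax7a, a marker of muscle precursors and NC (0.49, SE 0.10), rose. myf5 was near the lower limit of detection and was not called. These genes were not called at 4 h, where the log2 fold changes were 0.24 (SE 0.14) for myog, 0.34 (SE 0.32) for tmem8c and 0.06 (SE 0.15) for jam2a, and the differences between the times were -2.78 (SE 0.19, adjusted p = 2.01e-07) for myog, -3.07 (SE 0.40, adjusted p = 9.58e-05) for tmem8c and -2.56 (SE 0.19, adjusted p = 4.39e-07) for jam2a.

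Fast muscle genes rose almost without exception. Of 36 tested, 30 rose (83.3%) and tnni2b.1 fell, and 19 rose by at least 2-fold. tnnt3b, a fast troponin T, was at 28.8, 18.4, 25.1 and 18.1 CPM in the DMSO libraries and 267, 186, 219.6 and 259 CPM in the TP-0903 libraries (log2 fold change 3.37, SE 0.15, adjusted p = 3.74e-09), with no overlap. pvalb1, a parvalbumin that binds calcium in fast fibers, was at 10.1, 5.30, 7.83 and 6.87 CPM in the DMSO libraries and 119, 79.2, 95.5 and 106 CPM in the TP-0903 libraries (log2 fold change 3.73, SE 0.16, adjusted p = 3.74e-09), and casq1a, a calcium store protein, rose from 3.45 ± 0.872 to 30.1 ± 3.20 CPM. Some abundant members rose by less. mylpfa, a fast myosin light chain, was at 1063, 773, 868 and 871 CPM in the DMSO libraries and 1493, 1351, 1613 and 1598 CPM in the TP-0903 libraries (log2 fold change 0.76, SE 0.09, adjusted p = 3.37e-05), and the fast myosin heavy chain genes myhz1.1 (1.43, SE 0.13) and myhz1.3 (0.63, SE 0.10) belong to a cluster of near-identical copies, so the share of each copy is uncertain. The summed level of the list was 8389.8 to 11298 CPM with DMSO and 13284 to 16617 CPM with TP-0903. tnni2b.1, a fast troponin I, was at 418, 366, 349 and 399 CPM in the DMSO libraries and 223, 251, 281 and 261 CPM in the TP-0903 libraries (log2 fold change -0.59, SE 0.08, adjusted p = 1.24e-04). For tnnt3b the change at 4 h was 0.47 (SE 0.24, not called) and the difference between the times 2.92 (SE 0.30, adjusted p = 8.86e-06); pvalb1 and casq1a were not analysed at 4 h.

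Slow muscle fibers form earlier than fast ones, next to the notochord. Of 19 tested slow muscle genes 6 fell and 5 rose (median -0.23), and 3 rose without DMSO replicate 2, 3 or 4 or without TP-0903 replicate 1 or 3. smyhc1, the main slow myosin heavy chain, was at 1381, 1204, 1403 and 1496 CPM in the DMSO libraries and 891, 1034, 1064 and 1053 CPM in the TP-0903 libraries (log2 fold change -0.44, SE 0.08, adjusted p = 9.63e-04), with no overlap. myl10, a slow myosin light chain, fell from 296 ± 21.1 to 162 ± 30.3 CPM (SD, n = 4 each), and smyhc3 (-0.85, SE 0.17) and tpm3 (-0.35, SE 0.10) fell too. The members that rose include casq2 (0.52, SE 0.11), the ryanodine receptor ryr1a (0.35, SE 0.08) and prox1a, a regulator that is also expressed in lens and liver.

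Among 89 tested genes of the shared sarcomere and contraction list 33 rose (37.1%) and 25 fell (28.1%), both above the shares over all genes. Those that rose include the giant scaffold proteins of the sarcomere and the calcium release apparatus. ttna and ttnb, the titins, were among the genes with the most counts. CPM are not scaled by gene length, and the derived length of ttna is 100572 bases. ttna was at 10841, 9783, 10393 and 12135 CPM in the DMSO libraries and 17128, 15529.6, 16664 and 16392 CPM in the TP-0903 libraries (log2 fold change 0.61, SE 0.07, adjusted p = 2.32e-05), and ttnb changed alike (0.65, SE 0.07). neb, nebulin, rose from 1198 ± 89.1 to 2093 ± 108 CPM (SD, n = 4 each). ryr3, a calcium release channel, was at 28.3, 18.5, 23.8 and 22.8 CPM in the DMSO libraries and 200.2, 163, 164 and 181 CPM in the TP-0903 libraries (log2 fold change 2.92, SE 0.11, adjusted p = 1.64e-09), and jph1a, a junctophilin that couples it to the surface membrane, rose by 1.61 (SE 0.09). xirp2b, an actin-binding repeat protein, had the largest rise among genes whose mean reached 5 CPM in either group, at 0.526, 0.576, 1.32 and 0.764 CPM in the DMSO libraries and 65.4, 27.7, 29.95 and 46.6 CPM in the TP-0903 libraries (log2 fold change 5.67, SE 0.36, adjusted p = 1.19e-07). Those that fell include proteins that assemble or maintain the sarcomere. flncb, a filamin, was at 906, 891, 951 and 1034 CPM in the DMSO libraries and 311, 419, 447 and 388 CPM in the TP-0903 libraries (log2 fold change -1.27, SE 0.10, adjusted p = 6.48e-07), and unc45b, a myosin chaperone (-0.77, SE 0.11), klhl41b (-0.86, SE 0.09) and xirp1 (-1.08, SE 0.10) fell. acta1a, a skeletal actin with near copies, fell by 0.42 on the log2 scale (SE 0.09), and the acetylcholine receptor genes chrng (-0.55, SE 0.12) and chrnd (-0.42, SE 0.11) fell with musk, the kinase that places them at the synapse (-0.84, SE 0.13). The change at 8 h was above that at 4 h past the threshold for 17 of 79 members and below it for 17.

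Endothelial genes fell. Of 44 tested, 22 fell (50.0%) and 4 rose (9.1%), with a median of -0.40 and summed levels of 1592 to 1656 CPM with DMSO and 1137 to 1244 CPM with TP-0903. etv2, the factor that specifies blood vessel precursors, was at 14.7, 23.9, 24.8 and 24.6 CPM in the DMSO libraries and 5.21, 6.65, 9.38 and 7.95 CPM in the TP-0903 libraries (log2 fold change -1.59, SE 0.19, adjusted p = 3.09e-05). kdr, a VEGF receptor, was at 90.8, 92.7, 94.9 and 92.5 CPM in the DMSO libraries and 41.9, 50.5, 46.1 and 38.2 CPM in the TP-0903 libraries (log2 fold change -1.07, SE 0.09, adjusted p = 8.94e-07), while its relative kdrl was not called (-0.22, SE 0.10). lmo2 (-0.999, SE 0.12) and tal1 (-0.83, SE 0.10), shared by vessel and blood precursors, fell, as did tie1 (-0.69, SE 0.10) and, to a small degree, cdh5, the endothelial cadherin (-0.27, SE 0.09). The largest fall was in crip2, which is also expressed outside vessels, from 187 ± 12.4 to 61.4 ± 7.62 CPM (SD, n = 4 each). No member was called at 4 h, and the change was lower at 8 h than at 4 h for 11 of 43 members and higher for 2. For etv2 the log2 fold change at 4 h was -0.24 (SE 0.14) and the difference -1.32 (SE 0.25, adjusted p = 0.00249).

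Blood gene lists held members that rose beside members that fell. Of 46 tested erythroid genes 12 fell (26.1%) and 8 rose (17.4%), but 7 fell without TP-0903 replicate 2. rhag, an ammonia channel of the red cell membrane, was at 16.2, 12.9, 17.97 and 15.5 CPM in the DMSO libraries and 62.6, 47.8, 53.6 and 49.4 CPM in the TP-0903 libraries (log2 fold change 1.77, SE 0.12, adjusted p = 1.59e-07), and sptb, the red cell spectrin, rose from 193 ± 11.8 to 333 ± 19.7 CPM. The early hematopoietic genes drl (-1.05, SE 0.19) and gfi1b (-0.65, SE 0.16) fell, gata1a, the master regulator, was not called (-0.15, SE 0.13), and the embryonic globins, near copies of each other, moved in both directions with hbbe1.1 higher (0.46, SE 0.12) and hbae3 lower (-0.42, SE 0.10). Of 26 tested myeloid genes 5 rose (19.2%) and 4 fell (15.4%), near the shares over all genes. Only 3 rose without DMSO replicate 1 or 2 or without TP-0903 replicate 1 or 3. ctssb.1, a cathepsin, fell from 78.5 ± 10.1 to 23.5 ± 6.48 CPM, and cxcr4a, a chemokine receptor that early mesoderm and endoderm also express, fell by 1.60 on the log2 scale (SE 0.23). csf1ra, a receptor of macrophages and xanthophores, rose by 1.10 (SE 0.15). spi1b, mpx and lcp1, the defining markers of early macrophages and neutrophils, were below 6 CPM in the means of both groups and were not called. The summed level of the myeloid list was 1249 to 1965 CPM with DMSO and 806 to 1903 CPM with TP-0903. These markers thus made up little of it. Which tissue the fall of ctssb.1 came from was not tested.

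Heart and kidney genes showed a few clear changes in otherwise mixed lists. Of 24 tested cardiac genes 6 fell and 4 rose. vmhc, the ventricular myosin, was at 96.8, 89.5, 77.96 and 81.4 CPM in the DMSO libraries and 52.7, 62.00, 64.6 and 52.2 CPM in the TP-0903 libraries (log2 fold change -0.58, SE 0.09, adjusted p = 4.48e-04), and tbx20 (-0.70, SE 0.13) and nkx2.7 (-0.65, SE 0.18) fell, whereas myh6, the atrial myosin, rose from 14.8 ± 3.12 to 24.8 ± 1.64 CPM (SD, n = 4 each; log2 fold change 0.75, SE 0.13, adjusted p = 9.01e-04). vmhcl, a myosin gene related to vmhc, rose as well (0.74, SE 0.18). For vmhc the change was the same size at 4 h (-0.59, SE 0.14, not called there); myh6 was not analysed at 4 h. In the pronephros, the embryonic kidney, 8 of 41 tested genes fell (19.5%) and 5 rose (12.2%). slc12a3, the sodium chloride transporter of the distal tubule, was at 23.9, 26.5, 21.5 and 33.6 CPM in the DMSO libraries and 0.744, 1.22, 9.26 and 3.25 CPM in the TP-0903 libraries (log2 fold change -2.83, SE 0.40, adjusted p = 1.44e-04). The TP-0903 values spread widely, with replicate 3 highest, but all stayed below the DMSO values. lhx1a and lhx1b, early kidney and neuron genes, rose (0.93, SE 0.15 for lhx1b), wt1a, a gene of the filtering podocytes, rose by 0.62 (SE 0.16), and cdh17, a tubule cadherin, fell by 0.49 on the log2 scale (SE 0.11).

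In the list of endoderm, liver and pancreas 8 of 37 tested genes rose (21.6%) and 5 fell (13.5%). Over all genes the shares were 15.4% higher and 13.5% lower. fabp2, an intestinal fatty acid-binding protein that at these stages is abundant in the yolk syncytial layer, was at 207, 253, 313 and 197 CPM in the DMSO libraries and 95.6, 128, 133 and 34.1 CPM in the TP-0903 libraries (log2 fold change -1.31, SE 0.29, adjusted p = 0.00358), with TP-0903 replicate 4 well below the other TP-0903 libraries. hnf4a (-0.79, SE 0.17) and foxa3 (-0.60, SE 0.11), regulators of gut endoderm, fell. Those that rose include hormone-processing genes that neurons use too, pcsk2 (1.22, SE 0.12) and cpe (0.83, SE 0.10). Of 32 tested genes of yolk lipoproteins and serum proteins 6 rose (18.75%) and 2 fell (6.25%), and 11 rose without TP-0903 replicate 4. apoea rose from 11.02 ± 2.60 to 38.2 ± 12.1 CPM (SD, n = 4 each) and cp, ceruloplasmin, from 14.4 ± 4.03 to 44.2 ± 10.7 CPM, while tfa, transferrin, fell from 414 ± 75.6 to 237 ± 102 CPM. cp had changed more at 4 h (3.32, SE 0.44), a difference of -1.67 (SE 0.54, adjusted p = 0.0445).

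Notochord and matrix lists held members that rose beside members that fell. Of 53 tested genes of notochord, hypochord and floor plate 15 fell (28.3%) and 11 rose (20.8%). vwde (-1.51, SE 0.18), emilin3a (-1.88, SE 0.30) and the collagen col8a1a, at 181, 182, 201 and 248 CPM in the DMSO libraries and 103, 112, 119 and 116 CPM in the TP-0903 libraries (log2 fold change -0.85, SE 0.10, adjusted p = 2.19e-05), fell. acana, aggrecan of cartilage and notochord sheath, rose from 3.01 ± 0.805 to 11.99 ± 1.69 CPM (SD, n = 4 each). The fibrillar collagen col2a1a (-0.11, SE 0.07), the transcription factor ntla (-0.26, SE 0.10) and the signal shha (0.01, SE 0.08), which define notochord and floor plate, were not called.

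Of 93 tested genes of fin fold, dermis and matrix 26 rose and 25 fell. The 3 chains of type VI collagen, which surrounds muscle fibers, rose together. col6a1 was at 14.5, 13.01, 12.02 and 11.7 CPM in the DMSO libraries and 26.9, 28.1, 23.5 and 27.4 CPM in the TP-0903 libraries (log2 fold change 1.05, SE 0.11, adjusted p = 8.40e-06), and col6a2 (1.16, SE 0.10) and col6a3 (1.27, SE 0.10) changed by like amounts. lama2, the laminin of the muscle basement membrane, rose from 41.97 ± 7.36 to 105 ± 13.6 CPM (SD, n = 4 each), and col5a3b by 1.39 (SE 0.10). COMP, a matrix protein of tendon and cartilage, was at 171, 191, 184 and 191 CPM in the DMSO libraries and 60.2, 79.97, 91.2 and 79.5 CPM in the TP-0903 libraries (log2 fold change -1.24, SE 0.10, adjusted p = 1.06e-06), and thbs4b, a thrombospondin of the muscle attachments (-1.21, SE 0.08), vcana, a proteoglycan (-1.13, SE 0.14), and hmcn1, a hemicentin of the fin fold (-1.02, SE 0.09), fell. The collagen-modifying genes plod1a, plod2, p4ha1b and p4ha2 and the collagen chaperones serpinh1a and serpinh1b were all among those that fell. Among 72 tested genes of motile cilia none rose and 4 fell (2 without TP-0903 replicate 1 or 2), below the share over all genes, and foxj1a, the regulator of motile cilia, was not called (-0.15, SE 0.15).

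In the tailbud and presomitic mesoderm, from which the trunk and tail grow, 9 of 36 tested genes rose and 9 fell, but 5 rose without DMSO replicate 2 or TP-0903 replicate 2 and 4 without TP-0903 replicate 1. cdx4, a caudal factor that activates posterior Hox genes, was at 10.5, 16.5, 19.2 and 17.6 CPM in the DMSO libraries and 2.68, 3.44, 3.97 and 2.65 CPM in the TP-0903 libraries (log2 fold change -2.31, SE 0.21, adjusted p = 2.34e-06), and it was not called at 4 h (-0.05, SE 0.15). The difference between the times was -2.24 (SE 0.28, adjusted p = 5.38e-05). In DMSO-treated embryos the mean level of cdx4 was 147 CPM at 4 h and 15.9 CPM at 8 h. This difference without TP-0903 was not tested, and counts at 4 h and at 8 h were deposited and scaled separately. flh fell from few counts (-1.43, SE 0.31). The segmentation clock genes her12 (0.65, SE 0.20) and dlc (0.36, SE 0.10) rose, with her12 at 18.3, 21.8, 20.2 and 25.97 CPM in the DMSO libraries and 36.6, 44.03, 35.97 and 18.9 CPM in the TP-0903 libraries, where TP-0903 replicate 4 lies within the DMSO range. gdf11, a signal that sets the trunk to tail transition in mice, rose from 6.60 ± 1.31 to 11.9 ± 1.52 CPM (SD, n = 4 each), with a difference from 4 h of 1.21 (SE 0.21, adjusted p = 0.00109). tbx16 and fgf17 were low and not called, and ntla, the tailbud Brachyury gene, is given above.

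Members of the signaling lists went in both directions, with several lists near the shares over all genes (15.4% higher, 13.5% lower). In the BMP and TGF-beta list 24 of 64 tested genes fell (37.5%) and 9 rose (14.1%), and 5 rose without DMSO replicate 1 or TP-0903 replicate 2. The immediate BMP targets id1, at 368, 366, 426 and 485 CPM in the DMSO libraries and 296, 310.0, 298 and 281 CPM in the TP-0903 libraries (log2 fold change -0.47, SE 0.09, adjusted p = 0.00115), and id3 (-0.68, SE 0.09) fell, as did the receptor bmpr1ba (-0.95, SE 0.14), the effector smad1 (-0.56, SE 0.07) and the ventral factors vent (-1.20, SE 0.29) and ved (-1.03, SE 0.23). The antagonist fsta, follistatin, fell from 98.4 ± 5.09 to 36.1 ± 13.2 CPM (SD, n = 4 each), and the ligand bmp4 was not called (-0.04, SE 0.10). Of 46 tested canonical Wnt genes 13 fell (28.3%) and 6 rose (13.0%). wnt16 (-1.02, SE 0.19), a somite ligand that supports blood stem cells, and the receptor fzd7a (-0.45, SE 0.08) fell, while the antagonist dkk2 rose from low levels.

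Of 32 tested FGF and ERK feedback genes 6 rose (18.75%) and 4 fell (12.5%), near the shares over all genes. Without DMSO replicate 2 or without TP-0903 replicate 1, 2 or 3 the number that rose was 3. The feedback inhibitors spry2 and dusp6 and the targets etv4 and etv5b, which follow FGF activity, were not called, although dusp6 had been higher at 4 h (0.64, SE 0.07, called), and the receptor gene fgfr3 rose by 0.67 (SE 0.12). Of 37 tested Notch genes 9 rose (24.3%) and 3 fell (8.1%). The number that rose was 4 without DMSO replicate 1 or TP-0903 replicate 2 and 3 without TP-0903 replicate 1. It was 14 without TP-0903 replicate 4 and 13 without the pair. her4.2, a Notch target, was at 13.6, 21.2, 17.5 and 20.7 CPM in the DMSO libraries and 41.1, 33.2, 41.3 and 12.9 CPM in the TP-0903 libraries, where TP-0903 replicate 4 is the lowest of all 8 libraries. hey1 fell by 0.84 on the log2 scale (SE 0.12). In the Hedgehog list 6 of 29 tested genes rose (20.7%) and 3 fell (10.3%). There 2 readouts of the pathway moved oppositely, with ptch1 higher (0.28, SE 0.07) and gli1 lower (-0.35, SE 0.07). Of 31 JAK-STAT genes 2 rose (6.5%) and 4 fell (12.9%), at or below the shares over all genes.

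Of 22 tested genes of kinases that TP-0903 inhibits or that are related to them, 4 rose and 4 fell, but 2 rose without DMSO replicate 1, 2 or 3 or without TP-0903 replicate 1, 2 or 3, and 3 without either of the other libraries. kdr fell as given above, src fell from 104 ± 9.23 to 72.7 ± 5.82 CPM (SD, n = 4 each), and alk, at 0.921, 0.806, 1.54 and 2.40 CPM in the DMSO libraries and 3.27, 3.77, 3.25 and 3.01 CPM in the TP-0903 libraries (log2 fold change 1.20, SE 0.30, adjusted p = 0.00739), and ltk, its close relative, rose. tyro3, mertk, jak2a, aurka, aurkb and abl1 were not called. Levels of the axl transcript were not analysed here, and transcript levels say nothing of kinase activity.

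The broadest fall was in genes that make ribosomes. Of 111 tested genes of ribosome biogenesis 94 fell (84.7%) and none rose, with a median of -0.47. npm1a, nucleophosmin, was at 627, 501, 522 and 459 CPM in the DMSO libraries and 279, 306, 335 and 411 CPM in the TP-0903 libraries (log2 fold change -0.66, SE 0.12, adjusted p = 7.15e-04). ncl, nucleolin, was at 1534, 1323, 1242 and 1143 CPM in the DMSO libraries and 867, 904, 929 and 1102 CPM in the TP-0903 libraries (log2 fold change -0.46, SE 0.09, adjusted p = 0.00229), and fbl, which methylates ribosomal RNA, fell by 0.54 on the log2 scale (SE 0.10). DMSO replicate 1 is the highest and TP-0903 replicate 4 the highest of its group in each of npm1a, ncl and fbl, but the groups do not overlap. Without both libraries 95 members fell. Of 78 tested cytosolic ribosomal proteins 65 fell (83.3%) and none rose (median -0.33, and -0.23 relative to genes of like length). rps23 was at 384, 418, 398 and 489 CPM in the DMSO libraries and 294, 283, 272 and 271 CPM in the TP-0903 libraries (log2 fold change -0.59, SE 0.08, adjusted p = 7.59e-05), and rpl7a, among the most abundant, at 1810.2, 1859.6, 1792 and 2056 CPM in the DMSO libraries and 1389, 1449, 1558 and 1345 CPM in the TP-0903 libraries (log2 fold change -0.39, SE 0.07, adjusted p = 8.42e-04). The summed level was 63933 to 71816 CPM with DMSO and 51934 to 56862 CPM with TP-0903. rplp0, a protein of the ribosomal stalk, was not called, with DMSO replicate 4 far above the other DMSO libraries, at 2058, 2067, 2016 and 3056 CPM in the DMSO libraries and 2006, 2012, 1955 and 1855 CPM in the TP-0903 libraries. No member of the biogenesis list was called at 4 h, and the change was lower at 8 h past the threshold in 61 of 110 members; for npm1a the difference was -0.71 (SE 0.17, adjusted p = 0.0102).

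Other housekeeping functions changed less. Of 78 tested genes of the mitochondrial respiratory chain 18 fell and none rose, and the number that fell was 10 without DMSO replicate 1, 6 without TP-0903 replicate 1, 7 without TP-0903 replicate 2 and 29 without TP-0903 replicate 4. Of 38 proteasome genes 7 fell and none rose, but 1 fell without DMSO replicate 1, TP-0903 replicate 1 or TP-0903 replicate 2, 3 fell without DMSO replicate 3, and 20 fell without TP-0903 replicate 4. For psma1, which fell by 0.43 on the log2 scale (SE 0.12), the values were 94.5, 72.99, 69.1 and 85.8 CPM in the DMSO libraries and 54.7, 50.02, 65.6 and 68.5 CPM in the TP-0903 libraries. Heat shock and chaperone genes fell in 19 of 45 cases (42.2%), with none higher, and in 11 cases without TP-0903 replicate 1. hsp90aa1.1, a chaperone with which unc45b folds myosin, was at 848, 713, 676 and 749 CPM in the DMSO libraries and 255, 371, 392 and 388 CPM in the TP-0903 libraries (log2 fold change -1.09, SE 0.12, adjusted p = 1.32e-05), and hspa8, the most abundant, changed by -0.17 (SE 0.06) and was called in none of the 8 fits that left out a library. The stress-inducible hsp70l was near the lower limit of detection and not called.

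Energy and lipid genes changed by isoform. In glycolysis 15 of 33 tested genes rose (45.5%) and 6 fell (18.2%). The phosphofructokinases of muscle, pfkma (3.08, SE 0.28) and pfkmb, at 4.47, 1.38, 3.97 and 2.51 CPM in the DMSO libraries and 17.3, 20.4, 17.1 and 15.8 CPM in the TP-0903 libraries (log2 fold change 2.53, SE 0.23, adjusted p = 2.59e-06), and pgam2 and eno3, muscle isoforms that the fast muscle list also holds, rose. slc2a1a, a glucose transporter, was at 29.5, 38.1, 45.4 and 31.3 CPM in the DMSO libraries and 17.8, 16.2, 17.7 and 21.2 CPM in the TP-0903 libraries (log2 fold change -0.99, SE 0.14, adjusted p = 1.23e-04), while its paralogue slc2a1b rose (0.74, SE 0.14); for slc2a1a the difference from 4 h was -1.92 (SE 0.46, adjusted p = 0.0108). The aldolase gene aldoaa fell (-0.58, SE 0.08). Of 26 tested cholesterol synthesis genes 8 rose (30.8%) and none fell, and 5 rose without TP-0903 replicate 1. hmgcra, the rate-limiting enzyme, rose from 0.953 ± 0.618 to 2.999 ± 0.786 CPM, and the regulator srebf1 (0.81, SE 0.10) and insig1 (0.63, SE 0.14) rose too. Of 34 hypoxia genes 8 rose and 8 fell, and 5 fell without DMSO replicate 3. Of 55 genes of the unfolded protein and amino acid response 4 rose and 5 fell (3 without DMSO replicate 1 or TP-0903 replicate 1), below the shares over all genes, with slc3a2a, an amino acid transporter subunit, lowest (-1.20, SE 0.14). In the aryl hydrocarbon and xenobiotic list 7 of 32 rose and 3 fell; cyp1a, its usual reporter, was not called (-0.39, SE 0.25) and nqo1 rose by 0.83 (SE 0.11).

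Cell division and cell death genes were near the background or below it. Of 76 tested mitosis genes 8 rose and 4 fell, but 5 rose without DMSO replicate 1, 3 without DMSO replicate 2 or 3 or TP-0903 replicate 2 or 3, and 2 without TP-0903 replicate 1. Of 70 DNA replication genes 7 rose and 7 fell. The number of these that rose was 2 without DMSO replicate 2 or TP-0903 replicate 1 and 4 without DMSO replicate 3 or 4 or TP-0903 replicate 2 or 3. The number that fell was 4 without DMSO replicate 1 or 3 or TP-0903 replicate 1 or 2, and 11 without TP-0903 replicate 4. mki67, present in all dividing cells, was at 1208, 1225, 1233 and 1172 CPM in the DMSO libraries and 1439.5, 1393, 1359 and 1267 CPM in the TP-0903 libraries (log2 fold change 0.17, SE 0.06, adjusted p = 0.0459), called but lost in 7 of 8 fits that left out a library. ccnb1, a mitotic cyclin, was at 158, 156, 159 and 161 CPM in the DMSO libraries and 139, 128, 137 and 131 CPM in the TP-0903 libraries (log2 fold change -0.24, SE 0.06, adjusted p = 0.0092). Of 35 DNA damage response genes none rose and 4 fell (2 without DMSO replicate 3), and the best known of them varied more between libraries of a group than between treatments. cdkn1a, which arrests the cell cycle, was at 34.3, 14.9, 13.9 and 15.6 CPM in the DMSO libraries and 10.4, 11.8, 20.6 and 43.4 CPM in the TP-0903 libraries (log2 fold change 0.15, SE 0.39, adjusted p = 0.798). mdm2 (-0.15, SE 0.24) and ccng1 (0.24, SE 0.34) had the same 2 high libraries. In 12 of the 35 members (34.3%) DMSO replicate 1 and TP-0903 replicate 4 were both the highest of their group, against 14.0% of all genes tested. The pair was picked by the summed level of these same genes, so the higher share follows from that choice and is no separate support. Of 35 genes of the apoptosis machinery 1 rose and 4 fell, and 2 fell without TP-0903 replicate 1.

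Immediate early genes, which respond to stimulation within minutes, fell in 14 of 53 tested cases and only per2, a clock gene, rose (1.21, SE 0.17). junbb was at 13.3, 14.3, 28.6 and 41.1 CPM in the DMSO libraries and 1.04, 7.65, 5.53 and 9.76 CPM in the TP-0903 libraries (log2 fold change -1.99, SE 0.42, adjusted p = 0.00274), with no overlap. In other members the difference rested on DMSO replicates 3 and 4. egr1 was at 11.97, 15.3, 50.3 and 35.5 CPM in the DMSO libraries and 15.5, 15.6, 13.6 and 13.98 CPM in the TP-0903 libraries (log2 fold change -0.96, SE 0.34, adjusted p = 0.046), and fos was at 20.1, 21.4, 123 and 74.1 CPM in the DMSO libraries and 29.01, 29.1, 26.5 and 25.8 CPM in the TP-0903 libraries and was not called (log2 fold change -1.12, SE 0.43, adjusted p = 0.0652). The number of members that fell was 7 without DMSO replicate 3 and 19 without DMSO replicate 1.

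Adhesion and guidance genes were also divided. Of 50 tested cadherins and protocadherins 13 rose, among them the neural genes pcdh17 (0.97, SE 0.10) and celsr3 (0.90, SE 0.10), and 12 fell, among them the epithelial, muscle, NC and endothelial cadherins cdh1, cdh15, cdh6 and cdh5. Of 78 ephrin, semaphorin, Slit and netrin genes 16 rose and 17 fell, and 10 rose without DMSO replicate 1. robo2, a guidance receptor of axons, rose by 0.80 (SE 0.17), and robo4, a vessel gene, fell by 0.58 on the log2 scale (SE 0.11).

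Most genes with the largest changes belonged to no list: 26 of the 94 that rose by at least 4-fold and 10 of the 26 that fell were list members. gpnmb, a glycoprotein of melanosomes and macrophages, was at 0.263, 0.115, 0.331 and 0.109 CPM in the DMSO libraries and 11.2, 6.54, 5.17 and 7.71 CPM in the TP-0903 libraries, where the DMSO libraries hold 1 to 3 counts each. prp, at 5.66, 4.84, 5.07 and 4.69 CPM in the DMSO libraries and 54.1, 36.3, 42.2 and 47.5 CPM in the TP-0903 libraries (log2 fold change 3.15, SE 0.14, adjusted p = 3.74e-09), slc25a4, a mitochondrial ADP/ATP carrier of muscle (3.49, SE 0.33), MYOM2 (2 of 2), a myomesin of the sarcomere (3.33, SE 0.22), and MREG, melanoregulin of pigment cells (2.85, SE 0.28), were among the 15 largest rises. Only 9 of the 94 were tested at 4 h, against 22 of the 26 that fell by at least 4-fold. The largest falls outside the lists include mia2, which acts in protein export (-2.62, SE 0.25), efhd1, a mitochondrial calcium-binding protein, at 27.4, 31.2, 29.9 and 32.4 CPM in the DMSO libraries and 5.80, 7.65, 8.06 and 7.71 CPM in the TP-0903 libraries (log2 fold change -2.04, SE 0.12, adjusted p = 4.59e-08), megf10, a receptor of muscle precursors in mice (-2.02, SE 0.13), angptl2a (-2.01, SE 0.21), and 3 genes without a descriptive name, CR352249.1 (-3.05, SE 0.20), si:ch1073-155h21.1 (-2.94, SE 0.30) and BX322608.1 (-2.02, SE 0.09). megf10 was not called at 4 h (0.09, SE 0.10) and differed between the times by -2.09 (SE 0.16, adjusted p = 4.61e-07).

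**Figure D5:**
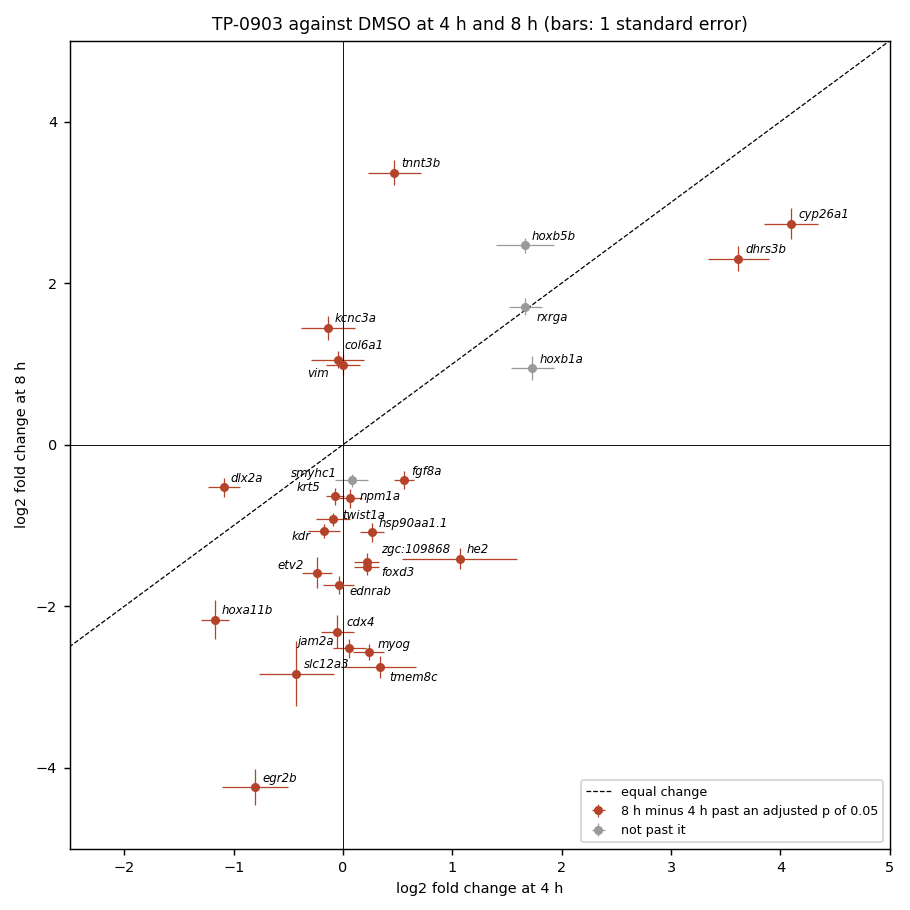
Log2 fold change (TP-0903 against DMSO) at 4 h (horizontal) and 8 h (vertical) of genes named in the text, chosen from the groups described, with bars of 1 standard error, derived from the test, and a dashed line of equal change. Genes in red differ between the times at an adjusted p of 0.05 in edgeR; most of them lie near 0 at 4 h and away from 0 at 8 h, while cyp26a1 and dhrs3b lie below the line, with 4.10 and 3.61 at 4 h against 2.73 and 2.30 at 8 h.

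Set against 4 h, the 8 h comparison held changes of several time courses, as the plot of changes at both times shows. cyp26a1, dhrs3a and dhrs3b had changed more at 4 h. rxrga, hoxb1a, nrip1a (1.31, SE 0.10 at 4 h and 1.20, SE 0.16 at 8 h), an RA target and corepressor, and mafba did not differ between the times past the threshold. fgf8a turned from higher to lower. egr2b, foxd3, twist1a, myog, cdh1, etv2 and npm1a were not called at 4 h and were called at 8 h, and for each of these genes the difference between the times passed the test.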

How the data were processed

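Ribosome-depleted total RNA of whole zebrafish embryos was sequenced by the authors as single reads from stranded libraries. They aligned the reads with Novoalign (version 2.08.03 in the submitters' processing notes) to zv9 and Ensembl splice junctions, and used USeq to choose 1 location per read, to discard repetitive alignments, and to count reads per gene. Genes with near-identical copies (fast myosin heavy chains, parvalbumins, globins, keratins, crystallins, actins, her4 genes) are therefore uncertain. The authors deposited raw counts per gene, the corresponding FPKM values, and their own DESeq2 (1.4.5) comparisons; the FPKM values served only to derive gene lengths, and the deposited log2 fold changes and transformed false discovery rates were not used. No value column lacked a sample (0).

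Counts of the 8 libraries of 8 h were tested with edgeR 4.0.16 in R 4.3.3 (filterByExpr, TMM scaling, glmQLFit, glmQLFTest, two-sided), with Benjamini-Hochberg adjustment over all genes tested and a threshold of 0.05. CPM are counts after TMM scaling, relative to the library total. SE was derived from the log2 fold change and the statistic of its quasi-likelihood test. It is therefore no estimate separate from the test. The effect at 8 h was compared with that at 4 h by an interaction term over 16 libraries and the genes listed at both times, which were deposited in separate tables; 18984 genes are listed at 8 h and 16361 at 4 h. Correlations across genes were computed on log2(CPM + 1). Replicates were biological replicates of the study, each a pool of embryos.

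Members and lists were chosen with earlier results of these data known, so lists are given as counts and medians with no test. Genes were named by rule: the 15 largest rises and 15 largest falls among called genes whose mean reached 5 CPM in either group and whose groups did not overlap; list members with the largest changes or levels, and members not called where a contrast turned on them; and genes the study examined by other assays. A few others were chosen after their values were seen. For the 15 largest rises and 15 largest falls the lack of overlap follows from the rule and is no separate support. The 57 lists hold 2284 distinct genes of the 8 h table, 73 matched through a synonym; 164 genes without a usable symbol took theirs from RefSeq (GRCz12tu), whose coordinates were not used.

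Alternatives were DESeq2 1.42.0, limma 3.58.1 (voom), other scalings and filters, robust dispersion, a test against a 1.5-fold change, thinning to the smallest total, length adjustment, a replicate block, all 24 libraries in one fit, and leaving out each library. Replicate numbers did not pair the libraries (correlations of deviations -0.08, 0.03, 0.06 and -0.07). Tested on simulated data of 17474 genes, the fit recovered 61.2% of 67 planted 1.5-fold changes, 85.1% of 67 2-fold and 100% of 63 4-fold changes. Of its calls 6.94% were false. The changes were planted outside the genes of lowest level, and far fewer were planted than the 5050 called in the data. These shares therefore need not hold for the 8 h comparison. Depth and counting error limit genes of a few CPM most. Some member genes are not reported here.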

Additional observations from a re-analysis of the deposited data

Results flagged for a closer look

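The 15 largest rises, the 15 largest falls and the genes the study examined by other assays were screened for a difference between the times. Changes at 8 h were not those at 4 h for 18 of those tested at both times (edgeR, interaction of treatment and time, Benjamini-Hochberg over all genes tested). Other list members that differed between the times are given above. The difference is given as the log2 fold change at 8 h minus that at 4 h. The muscle genes moved apart: tnnt3b differed by 2.92 (adjusted p = 8.86e-06), myog by -2.78 (adjusted p = 2.01e-07), tmem8c by -3.07 (adjusted p = 9.58e-05) and jam2a by -2.56 (adjusted p = 4.39e-07). Among regulators of the hindbrain, tail and neural crest, egr2b differed by -3.41 (adjusted p = 2.53e-04), cdx4 by -2.24 (adjusted p = 5.38e-05), hoxa11b by -0.97 (adjusted p = 0.0254) and twist1a by -0.82 (adjusted p = 0.00747), all toward lower levels at 8 h. Of these 18, only cyp26a1 and dlx2a had moved further from 0 at 4 h than at 8 h, cyp26a1 from 4.10 to 2.73 (difference -1.34, adjusted p = 0.0138) and dlx2a from -1.09 to -0.53 (difference 0.58, adjusted p = 0.0491). Both are genes the study examined. The 15 largest rises and 15 largest falls were picked by their change at 8 h. That choice favors a larger change at 8 h than at 4 h among them. Of the 15 largest rises only tnnt3b was tested at 4 h. The transporter slc12a3 differed by -2.38 (adjusted p = 0.0179), efhd1 by -2.47 (adjusted p = 3.51e-04), megf10 by -2.09 (adjusted p = 4.61e-07), mia2 by -2.26 (adjusted p = 1.57e-04) and angptl2a by -1.81 (adjusted p = 8.88e-04). Of the genes without a descriptive name, CR352249.1 differed by -3.42 (adjusted p = 9.29e-06), si:ch1073-155h21.1 by -2.88 (adjusted p = 2.79e-05) and BX322608.1 by -1.93 (adjusted p = 5.76e-06).

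In 7 of 190 groups of 4 libraries 1 library lay far from the other 3, with a gap to the nearest of them above Dixon's critical share of the whole range; chance gives about 1 group in 20, here 9.5. All 7 are DMSO replicate 1 or TP-0903 replicate 4, the libraries with the highest levels of DNA damage response genes. The list of DNA damage response genes itself was screened too and was not among the 7. Levels are the mean over a list's members of log2(CPM + 1). DMSO replicate 1 was lower in neural progenitor genes, at 5.95 against 6.201 to 6.209 in the other DMSO libraries (gap 0.968 of the range), in pronephros genes, at 4.16 against 4.291 to 4.303 (0.913), in canonical Wnt genes, at 4.31 against 4.43 to 4.45 (0.843), and in Hedgehog genes, at 5.57 against 5.71 to 5.74 (0.857). It was higher in proteasome genes, at 6.43 against 6.06 to 6.11 (0.856). TP-0903 replicate 4 was lower in neural progenitor genes, at 5.98 against 6.27 to 6.33 in the other TP-0903 libraries (0.832), and in Notch genes, at 5.41 against 5.77 to 5.80 (0.922). The part of these differences in the comparison of the treatments was not tested; without both libraries 4833 genes were called in place of 5050.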

How the results depend on the processing

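The count of 5050 called genes (2691 higher, 2359 lower) stayed between 4477 and 5197 under DESeq2 (4672), limma voom (5023), the other scalings (5069 to 5087), the filter on low counts (5197 with none, 4521 at a mean of at least 5 CPM), robust dispersion (5088), thinning (4613) and a replicate block (4477), and with library totals only 3059 genes were higher and 2010 lower. It was 658 (481 higher, 177 lower) when changes were tested against 1.5-fold, 2917 (1641 and 1276) at an adjusted p of 0.01, and 1478 (771 and 707) with all 24 libraries in one fit; the cause of the last was not tested. Leaving out each library in turn gave 3847 to 5314 genes (2084 to 2763 higher, 1763 to 2551 lower), and 3308 genes were called in all 8 of these fits. The interaction with time was called for 1453 to 2546 genes when a library was left out, with 1453 without TP-0903 8 h replicate 1, against 2255 with all libraries, 2413 with DESeq2 and 2547 with a replicate block.

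Of the 57 lists 22 had a median above 0, and 19 to 25 did when a library was left out. The sign of the median changed for 1 to 6 lists, depending on the setting. Of 88 list counts of at least 4 members, 30 moved by over 1.5 times when a library was left out; the counts of members that rose for Hox groups 1 to 5, neuron structure, fast muscle, pigment and lens genes, and those that fell for epidermal, endothelial and ribosome genes, did not. Of 400 genes described, none changed direction. The number that lost their call was 4 to 31 under the other scalings, tools and the replicate block, 18 to 63 when a library was left out, and 268 against 1.5-fold. The fit of all 24 libraries held only genes listed at every time, so not all of the 400 could be followed. In it 175 kept their result and 159 lost their call. Without DMSO replicate 1 and TP-0903 replicate 4, chosen after seeing the data, 21 lost it. The log2 fold change of snai1b ran from -0.61 without DMSO replicate 1 to -1.37 without TP-0903 replicate 4. Genes of a few CPM are limited by counting error.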
